A study of Mus musculus with 3 samples.

Results

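Strong and weak 1-hour responders were the 505 highest and the 505 lowest of 5052 ranked cells of the LP1 library, out of 16281 barcodes in the 3 libraries of the study. The study asked how purified lipoproteins of *Borrelia burgdorferi* (*Bb*LP), the spirochete of Lyme disease, change RNA levels in single bone marrow derived macrophages (BMDMs). The BMDMs came from pooled bone marrow of wild-type C3H/HeN female mice aged 6 to 8 weeks and were grown in medium conditioned by L929 fibroblasts. LP1 cells received 1 µg/mL *Bb*LP for 1 h, and UI cells received PBS only and were collected with the 4 h samples. Each library was 1 pool of 3 culture wells, so no group had a replicate. For these libraries the paper states that BMDMs of 3 mice were treated separately before pooling. Cells were not assigned to a mouse or well here, so whether the tails differed in these was not tested. No test between cells or libraries was made, and every interval given is a 95% interval for counting error only. The 4 h library (LP4) was not used for any comparison.

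The score of a cell was the sum of its *Cebpb*, *Ccl3* and *Ccl4* UMIs (unique molecular identifiers, each standing for 1 captured RNA molecule) per 1000000 UMIs of that cell. Cells with over 500 UMIs, over 500 genes, under 5% mitochondrial UMIs and at least 2000 UMIs were ranked. The highest 10% of LP1 formed the strong tail and the lowest 10% the weak tail. The same split of 5949 UI cells gave tails of 595 cells each, which are shown beside LP1 as the differences that untreated cells already carried. Since the score was measured in the same cells, all differences between tails are descriptions.

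Borrelial lipoproteins are sensed by Toll-like receptor 2 (TLR2) together with TLR1 and CD14, and signal through MyD88 to NF-kB and the MAP kinases. Within the first hour such signals raise immediate early transcription factors, chemokines and feedback inhibitors in macrophages. *Cebpb* encodes C/EBP beta, a transcription factor of macrophage activation. *Ccl3* and *Ccl4* encode chemokines that attract monocytes and T cells, and they lie close together in the mouse chemokine cluster. Macrophages grown from bone marrow are not uniform, and the levels of such genes can differ between cells before any stimulus.

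In the GRCm38 build, *Cebpb* (ENSMUSG00000056501) lies at chr2:167688915-167690418 on the plus strand, *Ccl3* (ENSMUSG00000000982) at chr11:83647844-83649355 on the minus strand and *Ccl4* (ENSMUSG00000018930) at chr11:83662584-83664683 on the plus strand. The promoters below run from 250 bases before to 50 bases after the start of the RefSeq gene (GRCm38.p6) and are shown for 2 of the score genes and for *Cxcl10*, which had the next to largest ratio between the LP1 tails. Capitals mark matches to 6 motifs: the NF-kB motif, AP-1 (TGANTCA), C/EBP (TTGCNNAA), the interferon-stimulated response element (GAAANNGAAA) and EGR (GCGNGGGCG) on both strands, and the TATA box (TATAAA) on the gene's strand.
Cxcl10, chr5:92348840-92349139, minus strand: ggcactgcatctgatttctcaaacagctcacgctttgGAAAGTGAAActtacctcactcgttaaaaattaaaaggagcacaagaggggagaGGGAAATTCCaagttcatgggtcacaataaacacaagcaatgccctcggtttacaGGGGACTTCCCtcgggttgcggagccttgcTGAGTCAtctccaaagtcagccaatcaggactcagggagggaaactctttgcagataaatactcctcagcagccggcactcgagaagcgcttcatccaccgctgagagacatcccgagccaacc
Ccl3, chr11:83649329-83649628, minus strand: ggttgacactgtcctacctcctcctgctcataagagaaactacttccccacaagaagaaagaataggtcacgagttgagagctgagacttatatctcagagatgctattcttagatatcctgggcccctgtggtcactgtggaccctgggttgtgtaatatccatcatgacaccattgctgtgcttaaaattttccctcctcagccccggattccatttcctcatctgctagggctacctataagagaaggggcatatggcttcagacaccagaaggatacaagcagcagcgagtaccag
Cebpb, chr2:167688665-167688964, plus strand: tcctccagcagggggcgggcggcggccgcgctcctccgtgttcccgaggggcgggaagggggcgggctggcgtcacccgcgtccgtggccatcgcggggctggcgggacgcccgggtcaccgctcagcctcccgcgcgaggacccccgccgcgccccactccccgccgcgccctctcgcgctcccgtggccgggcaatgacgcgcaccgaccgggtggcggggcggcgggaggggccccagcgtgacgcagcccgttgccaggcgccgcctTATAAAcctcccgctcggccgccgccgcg

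The *Cxcl10* window held NF-kB matches at 159 to 150 bases and, as 2 overlapping matches, at 104 to 94 bases upstream, an AP-1 match at 74 to 68 bases upstream and the interferon-stimulated response element at 213 to 204 bases upstream. The *Ccl3* window held none of the 6 motifs and the *Cebpb* window held TATAAA alone, downstream of the RefSeq start. Among 32851 mouse promoters of this length, 8.46% held the NF-kB motif, 7.81% AP-1, 10.8% C/EBP, 3.44% the interferon-stimulated response element, 5.55% EGR and 8.32% the TATA box. A match of letters does not show that a factor binds there.

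The tails differed in depth. The median was 6405 UMIs per cell in the LP1 strong tail against 9600 in the weak tail, and 3716 against 4897 in UI. The median mitochondrial share was 2.89% in both LP1 tails, and the ribosomal protein share was 10.4% in the strong and 8.79% in the weak LP1 tail. All 4 tails carried macrophage RNA: the 8 macrophage markers were detected in every tail, and their summed level was 21008 CPM (UMIs per 1000000 of a tail's summed UMIs) in LP1 strong, 9788 in LP1 weak, 18576 in UI strong and 10244 in UI weak cells. *Lyz2*, the macrophage lysozyme, made up most of that difference, with 17961 and 7476 CPM in the LP1 strong and weak tails. *Cd68* (726 and 947 CPM in LP1, 687 and 940.3 CPM in UI) and *Itgam* (144 and 201 CPM, 129 and 197 CPM) went the other way. The 8 neutrophil markers summed to 398 CPM in LP1 strong and 571 in LP1 weak cells, with *Ly6g* and *Retnlg* at 0 in the strong and *Retnlg* at 0 in the weak tail, and 1 cell held 78.5% of these UMIs in the strong tail. In UI these markers summed to 271 and 1012 CPM. *Csf3r* went the other way in both libraries, at 74.1 CPM in strong and 16.8 CPM in weak LP1 cells and 68.8 and 25.7 CPM in UI. The 4 monocyte markers summed to 86.5 and 62.8 CPM in LP1 and 83.1 and 44.0 CPM in UI. Of these, *Plac8* was lower in LP1 strong cells (3.05 and 23.7 CPM) and *Ly6c2* in UI strong cells (1.26 and 8.37 CPM). The dendritic cell markers summed to 98.2 CPM in LP1 strong and 38.9 CPM in LP1 weak cells, where 1 cell held 33.6% and 71.6% of these UMIs. In the strong tail most came from *H2-Aa*, *H2-Ab1* and *H2-Eb1* (43.5, 31.3 and 20.5 CPM). *Flt3*, *Ccr7*, *Cd209a*, *Zbtb46* and *Ccl22* each stayed under 5 CPM there. Markers of basophils, T and NK cells, B cells and stromal cells stayed under 5 CPM in each tail. Cells with at least 3 cell cycle markers were 2.18% of the LP1 strong and 15.2% of the weak tail, and 0.504% against 8.74% in UI. This call was not matched for depth. *Mki67*, 1 of the 6 cycle markers, went the other way, at 246 and 216 CPM in LP1 and 271 and 204 CPM in UI. With tails taken within 10 bins of the UMI count, so that median depth was 9350 and 9402 UMIs in LP1, 186 genes were at least 2-fold higher and 146 lower in strong cells; the counts at unmatched depth are given below. Doublets were not removed. Scrublet marked 0 UI cells and 1 LP1 cell, so the caller has not worked on these data, and the median doublet score was 0.0475 in the LP1 strong and 0.0685 in the weak tail. Of 9 barcode sequences that UI and LP1 shared, 2 were in the UI strong tail and 0 in the other tails.

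The LP1 strong tail began at a score of 2589, with the next cell at 2584, and the weak tail ended at 149.8, with the next cell at 151. Median scores were 3923 in the strong and 90.2 in the weak tail, against 572 over all LP1 cells. In UI the strong tail began at 1155 and had a median of 1786. In UI, 1978 cells (33.2%) had a score of 0 and could not be ranked among themselves, so the weak tail was 595 of them taken at random. In LP1, 162 cells (3.21%) had a score of 0, and these 162 lay in the weak tail. Of the UI cells, 141 (2.37%, 2.00 to 2.79) reached the limit of the LP1 strong tail, and 1267 LP1 cells (25.1%, 23.9 to 26.3) reached that of the UI strong tail. At the other end, 716 LP1 cells (14.2%, 13.2 to 15.2) stayed at or below the UI median.

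**Figure D1:**
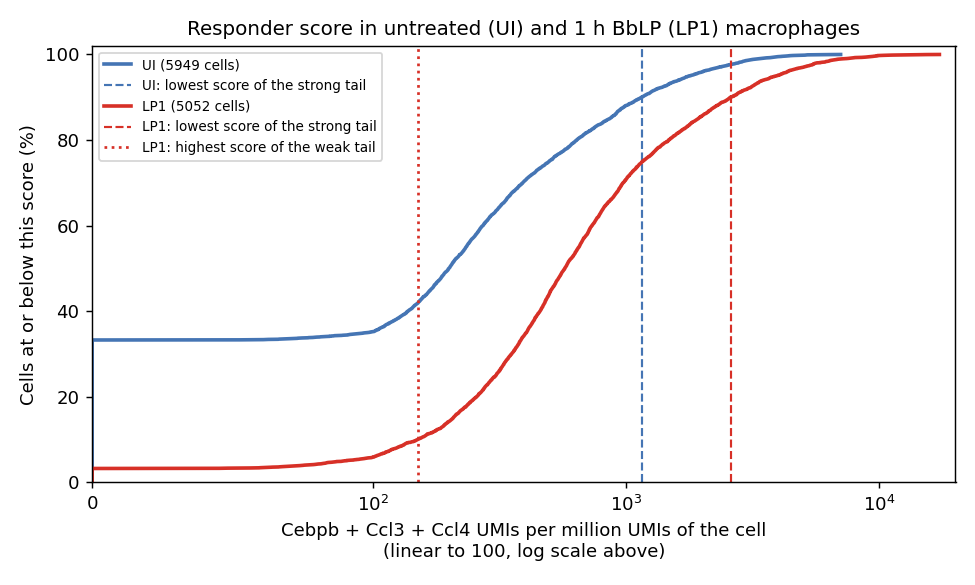
Share of cells (percent, y axis) at or below each score (UMIs of *Cebpb*, *Ccl3* and *Ccl4* per 1000000 UMIs of the cell; x axis linear to 100, log scale above) in UI and LP1. Dashed lines mark the lowest score of each strong tail (1155 in UI, 2589 in LP1) and the dotted line the highest score of the LP1 weak tail (149.8); the LP1 curve lies to the right of the UI curve throughout.

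Most score UMIs of the LP1 strong tail came from the chemokines, not from *Cebpb*. The shares and bin levels given next are of genes that ranked the cells, so the ranking partly set their direction. *Ccl4* gave 51.2% and *Ccl3* 39.5% of the score UMIs of LP1 strong cells, and *Cebpb* 9.26%. In the weak tail *Cebpb* gave 89.2%. Over 10 equal bins of LP1 cells from the lowest to the highest score, *Ccl4* went from 2.86 through 46.5 in the fifth to 2264 CPM, whereas *Cebpb* went from 69.6 through 400.1 in the fifth to 409 CPM in the highest. To see the score genes in UMIs that had not chosen the cells, each cell's UMIs were divided at random, the score taken from one part and the levels from the other. *Ccl3* was then at 1688 CPM in strong and 30.5 CPM in weak LP1 cells, a log2 ratio of 5.79 (5.45 to 6.15), and *Ccl4* at 2111 and 23.2 CPM, a ratio of 6.51 (6.12 to 6.92). *Cebpb* was at 383 and 264 CPM, a ratio of 0.54 (0.38 to 0.70). In UI the *Cebpb* levels were 105 and 101 CPM, and the ratio of 0.06 (-0.29 to 0.40) included 0, while *Ccl3* (694 and 52.3 CPM) and *Ccl4* (740.3 and 32.1 CPM) again lay far apart.

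Of 3535 genes tested in LP1, leaving out the score genes, 273 were at least 2-fold higher in the strong tail (7.72%) and 305 at least 2-fold lower (8.63%). A gene was tested when it had at least 50 CPM in one tail. In UI, 236 of 3474 genes were higher (6.79%) and 238 lower (6.85%). These shares over all tested genes are the background for the list counts below. The split of higher to lower depended on the scaling: with factors from the median of ratios, which moved the median gene by 0.14 in LP1, 354 genes were higher and 218 lower in LP1, and 307 and 183 in UI, and with TMM factors 329 and 246, and 290 and 199. Values below are unscaled CPM, where the median over 10416 genes of the LP1 ratio was -0.16.

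Most of what parted strong from weak LP1 cells also parted the UI tails. Across the 3277 genes tested in both libraries, the log2 ratios of strong over weak gave a Pearson's r of 0.948 and a Spearman's rho of 0.949. With cells ranked by *Cebpb* alone they were 0.556 and 0.439, and with no CPM minimum 0.837 and 0.805. These are descriptions across genes, whose points share the libraries, the score genes and the spread of depth. Of the 262 genes at least 2-fold higher in LP1, 200 were also at least 2-fold higher in UI, which was 76.3% of the LP1 and 89.3% of the UI genes. The other 62 had UI ratios of 0.44 to 0.99. Of 248 lower genes 186 were shared, 75.0% of the LP1 and 80.9% of the UI genes, and the other 62 had UI ratios of -0.999 to -0.33. None of these genes had the opposite sign in UI (0 of 262 and 0 of 248). The SD of the ratios over genes was 0.80 in LP1 and 0.75 in UI. The counts differed with the score genes used for ranking. When cells were ranked by *Cebpb* alone, 5 genes were higher and 20 lower in LP1 and 0 and 7 in UI. Ranking by *Ccl3* and *Ccl4* gave 268 and 242 in LP1 and 251 and 259 in UI. No *Cebpb* UMI was found in 3447 of 5949 UI cells and 422 of 5052 LP1 cells, and the part of this was not tested.

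**Figure D2:**
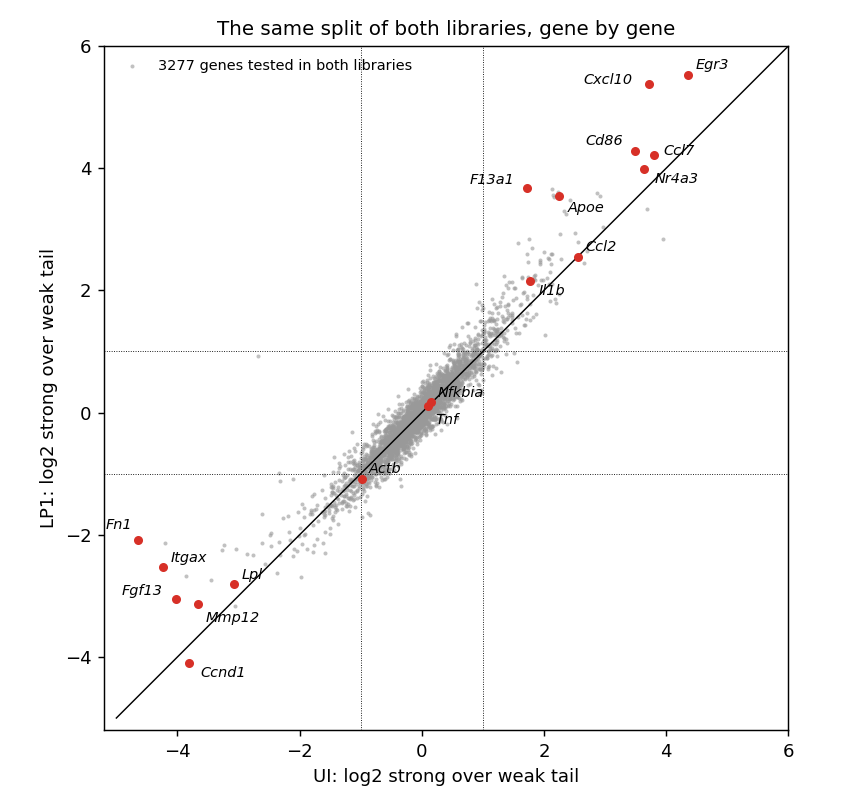
Each point is 1 of 3277 genes with its log2 ratio of strong over weak cells in UI (x axis) and in LP1 (y axis); the line marks equal ratios, dotted lines 2-fold, and red points are genes named in the text. The points follow the line, from *Ccnd1* (-3.80 in UI, -4.09 in LP1) to *Egr3* (4.36 and 5.53).

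For genes chosen by their difference between the LP1 tails, most of the change lay in the upper bins of cells. The bins were equal in cells and not in steps of score. The make-up of the score also changed along this range. *Cebpb* gave 89.2% of the score UMIs in the LP1 weak tail and 9.26% in the strong tail. Ranking by *Cebpb* alone gave 5 genes higher and 20 lower in LP1. The part that the make-up of the score had in the values below was not tested. For the 273 genes higher in the LP1 strong tail, the median log2 change was 0.27 from the lowest to the fifth bin of cells and 1.22 from the fifth to the highest. For the 305 lower genes it was -0.18 and then -1.19. *Ccl7* was at 70.7, 99.5, 339 and 1317 CPM in the lowest, the fifth, the eighth and the highest bin of LP1. *Lpl*, the lipoprotein lipase, was at 3427, 2940, 1875 and 488 CPM. In UI, where the lowest 3 bins held only cells with a score of 0, *Ccl7* was at 59.8, 56.7, 194 and 835 CPM.

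**Figure D3:**
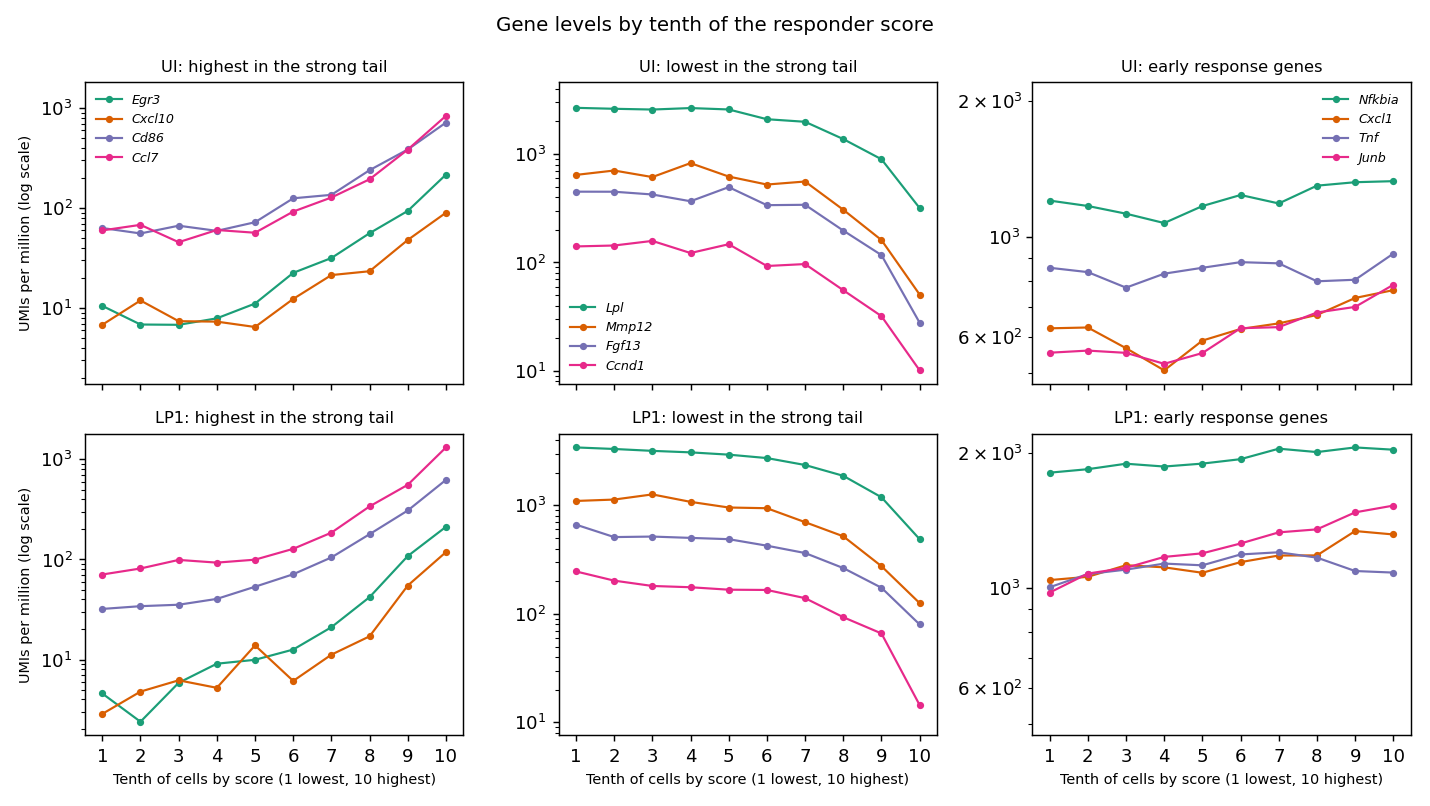
Levels (CPM, log scale) of 12 genes in 10 bins of cells ordered by score, from the lowest (1) to the highest (10), in UI (top) and LP1 (bottom). *Ccl7*, *Cd86*, *Egr3* and *Cxcl10* climb and *Lpl*, *Mmp12*, *Fgf13* and *Ccnd1* drop over the upper bins in both libraries, while *Nfkbia*, *Cxcl1*, *Tnf* and *Junb* (right, narrower axis) change less.

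Among 13 other chemokines, 9 were tested in LP1; 4 were at least 2-fold higher in strong cells and 1 lower, and the list's median ratio was 0.95 in LP1 and 0.84 in UI, against -0.16 and -0.13 over all genes. *Ccl7*, which attracts monocytes, was at 1317 CPM in strong and 70.8 CPM in weak LP1 cells and at 834 and 59.8 CPM in UI. Its log2 ratio was 4.22 (4.06 to 4.37) in LP1 and 3.80 in UI. *Cxcl10*, a chemokine of the interferon response, was at 118 and 2.86 CPM in LP1 and at 89.4 and 6.82 CPM in UI, which gave 5.37 (4.63 to 6.22) and 3.71. The strong cells were high and the weak cells near the limit of detection in both libraries. *Ccl2* was at 510 and 87.0 CPM in LP1 and at 227 and 38.7 CPM in UI, so both tails were higher in LP1 and the ratio was 2.55 in each. *Cxcl2*, the most abundant chemokine, was at 7039 and 3656 CPM in LP1 and 7007 and 3904 CPM in UI. *Cxcl1*, which draws neutrophils, differed little between tails, at 1316 and 1043 CPM in LP1 and 762 and 627 CPM in UI. *Cxcl14* went the other way, with 44.4 CPM in strong and 173 CPM in weak LP1 cells and 34.4 and 156 CPM in UI. *Ccl5*, a chemokine for T cells, had a LP1 ratio of 0.61, and 1 weak cell held 92.9% of the 127 *Ccl5* UMIs of that tail. Leaving out each tail's highest cell, the ratio was 4.20 in LP1 and 5.21 in UI. The same weak tail had all 60 of its *Ccl22* UMIs and all 114 of its *Il12b* UMIs in 1 cell each.

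Of 15 cytokine genes, 10 were tested in LP1, and 5 were higher and 0 lower in strong cells; the median was 1.39 in LP1 and 0.94 in UI. *Il1b*, the inflammasome-dependent cytokine, was at 1054 CPM in strong and 237 CPM in weak LP1 cells, and at 889 and 262 CPM in UI. Its ratios were 2.15 (2.06 to 2.25) and 1.76. *Il1rn*, the inhibitor of the interleukin 1 receptor, was at 584 and 154 CPM in LP1 and 707 and 201 CPM in UI, ratios of 1.92 and 1.82. *Osm* was at 115 and 25.0 CPM in LP1 and 55.8 and 18.0 CPM in UI. *Tnf* differed little between tails, at 1084 and 1006 CPM in LP1 and 919 and 854 CPM in UI. Its ratio was 0.11 in each. *Il10*, which restrains macrophage activation, was at 162 and 84.5 CPM in LP1 and 161 and 84.0 CPM in UI. Among the receptors for chemokines and related ligands, 2 of the 4 tested were higher, *Ccrl2* (571 and 103 CPM in LP1, 364 and 94.8 CPM in UI) and *C5ar1* (94.0 and 32.8 CPM, 106 and 38.1 CPM).

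Of 20 immediate early factors, 18 were tested in LP1, 10 were higher and 0 lower, and the median was 0.95 in LP1 and 1.00 in UI. *Egr3*, a zinc finger factor of the EGR family, had the largest LP1 ratio of the genes tested. It was at 212 CPM in strong and 4.58 CPM in weak LP1 cells and at 216 and 10.5 CPM in UI, giving 5.53 (4.95 to 6.18) and 4.36. The strong tails of the libraries differed by -0.03 (-0.19 to 0.14) on the log2 scale. *Nr4a3*, an orphan nuclear receptor outside this list, was at 212 and 13.4 CPM in LP1 and 204 and 16.4 CPM in UI. *Ier3* was at 1481 and 275 CPM in LP1 and 1572 and 362 CPM in UI. *Atf3*, a stress factor that dampens Toll-like receptor targets, was at 714 and 209 CPM in LP1 and 824 and 363 CPM in UI. *Egr1* was at 583 and 243 CPM in LP1 and 743 and 184 CPM in UI, with ratios of 1.26 and 2.01. *Fos* (0.36), *Junb* (0.64) and *Jund* (-0.01) differed by less than 2-fold between the LP1 tails.

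*Tlr2* itself was at 288 CPM in strong and 65.8 CPM in weak LP1 cells and at 230.0 and 82.4 CPM in UI, ratios of 2.13 (1.95 to 2.31) and 1.48. Of the 20 genes of this list 9 were tested in LP1, and *Tlr2* was the 1 higher and *Cd36*, a scavenger receptor that aids TLR2, the 1 lower, at 327 and 949 CPM. In UI 2 of 8 were higher, *Tlr2* and *Tlr4*, and *Cd36* was lower. These counts in LP1 are near the 7.72% higher and 8.63% lower over all genes and are no result about the list. *Cd14* was at 833 and 483 CPM in LP1 and 400.0 and 263 CPM in UI. *Myd88*, the adaptor, was close in the LP1 tails, at 25.0 and 23.5 CPM. Of 16 NF-kB factors and feedback genes, 14 were tested in LP1, *Birc3*, an inhibitor of cell death, was the 1 higher (254 and 92.2 CPM) and 0 were lower. In UI the 1 higher was *Nfkbid* (293 and 134 CPM), and the median was 0.42 in LP1 and 0.40 in UI. With 7.72% of all genes higher in LP1, 1 of 14 does not set the list apart. *Nfkbia*, the inhibitor that NF-kB induces within minutes, was at 2029 and 1805 CPM in LP1 and 1329 and 1204 CPM in UI, a ratio of 0.17 (0.12 to 0.21) in LP1 and 0.14 in UI. Of 13 MAP kinase feedback genes 8 were tested in LP1 and 0 passed 2-fold in either direction. *Dusp1*, the phosphatase that ends MAP kinase signals, was at 863 and 466 CPM in LP1 and 670 and 361 CPM in UI, a ratio of 0.89 in each, while the list's median was -0.20 in LP1 and 0.21 in UI. Members went both ways in LP1, as *Dusp4* (128 and 191 CPM) was lower in strong cells by less than 2-fold. Among 7 genes that shorten or process cytokine RNA, 3 of 6 tested were higher: *Zfp36l1* (603 and 78.6 CPM in LP1, 518 and 91.1 CPM in UI), *Zc3h12c* (418 and 145 CPM, 364 and 138 CPM) and *Zfp36* (319 and 150.4 CPM, 166 and 81.2 CPM). The other C/EBP family genes had a median of -0.10 in LP1, with 0 of 1 tested past 2-fold.

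Of 13 interferon-stimulated genes in the matrix, 12 were tested in LP1; 9 were higher, 0 lower, and all 12 had ratios over 0. The median was 1.87 in LP1 and 1.38 in UI. *Rsad2*, an antiviral enzyme, was at 367 CPM in strong and 79.0 CPM in weak LP1 cells and at 298 and 95.4 CPM in UI. *Gbp5*, a guanylate binding protein, was at 72.4 and 6.49 CPM in LP1 and 81.4 and 15.2 CPM in UI. *Ifit3* was at 119 and 27.9 CPM in LP1 and 99.9 and 53.9 CPM in UI. *Irf7*, an interferon regulatory factor, was at 107 and 73.1 CPM in LP1, which was less than 2-fold.

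In a list of 10 genes led by *Apoe*, which was put together from clusters of these same cells, 9 were tested in LP1 and in UI, and 9 were higher in each; the medians were 2.38 and 1.90. The list was known from these libraries, so its direction is not independent evidence. *Apoe*, the lipid carrier, was at 928 CPM in strong and 79.2 CPM in weak LP1 cells and at 1075 and 227 CPM in UI. *Cd86*, a co-stimulatory ligand for T cells, was at 624 and 32.1 CPM in LP1 and 713 and 63.2 CPM in UI. *C1qb*, a chain of complement C1q, was at 138 and 18.3 CPM in LP1 and 161 and 33.8 CPM in UI. *Mertk*, a receptor for dying cells, was at 145 and 12.02 CPM in LP1 and 243 and 33.5 CPM in UI. Of 12 scavenger and efferocytosis genes, 6 were tested in LP1 and *Mertk* and *Gas6*, its ligand, were the 2 higher. Over all genes tested in LP1, 7.72% were higher. *Trem2* was close, at 1339 and 1534 CPM. When the tails were taken within 5 bins of the *Apoe*, *Slc9a9* and *Selenop* share, so that both tails held equal numbers of cells from each bin, 90 genes were higher and 28 lower in LP1, and 75 and 30 in UI, and the list medians were nearer 0 in LP1 for most lists. The *Apoe* list holds the genes of these bins, so its move towards 0 followed in part from the matching itself. The *Apoe* list went to 0.87, the *Fgf13* list to -0.48, immediate early factors to 0.56, cytokines to 0.84 and chemokine receptors to 0.64 in LP1, and to 0.64, -0.55, 0.58, 0.87 and 0.42 in UI. The chemokine median was 0.69 in LP1 and 0.70 in UI, and the interferon median 1.36 and 1.34.

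In the list of 10 genes led by *Fgf13*, also known from these cells, 6 were at least 2-fold lower in LP1 strong cells and 5 in UI, with medians of -1.09 and -1.08. *Lpl* was at 488 CPM in strong and 3427 CPM in weak LP1 cells and at 317 and 2668 CPM in UI. *Mmp12*, a macrophage elastase, was at 126 and 1101 CPM in LP1 and 50.8 and 642 CPM in UI. *Ccnd1*, the D-type cyclin of the G1 phase, was at 14.4 and 246 CPM in LP1 and 10.1 and 141 CPM in UI, the largest ratio on this side in LP1 (-4.09, -4.52 to -3.69). Over all genes tested in LP1, 8.63% were lower. Of 14 actin and adhesion genes 13 were tested, 4 were lower in LP1 and 0 higher, among them *Actb* (4407 and 9335 CPM) and *Itgax* (18.6 and 107 CPM). Of 12 glycolysis genes 8 were tested, 4 were lower, 0 higher and 0 had a ratio over 0: *Ldha*, which makes lactate, was at 181 and 562 CPM in LP1 and 168 and 452 CPM in UI. *Srm*, a polyamine synthase, was at 6.66 and 50.2 CPM in LP1. The DNA replication genes *Mcm3* (11.7 and 77.5 CPM) and *Lig1* (8.60 and 60.3 CPM) were also low in LP1 strong cells, as was the share of cycling cells given above, whose part was not tested. Without cells bearing cycle markers, 266 genes were lower in LP1 and 204 in UI.

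Ribosomal protein, respiratory chain and mitochondrial genes differed less between tails. Of 80 tested ribosomal protein genes, 0 passed 2-fold in LP1 (median 0.22), and the same held for 71 genes of the nuclear respiratory chain (-0.23) and 13 mitochondrial genes (-0.11). Over all genes tested in LP1, 8.63% were lower, and the median ratio over all genes was -0.16. Of 14 tested lysosome genes 2 were lower, *Ctsk* and *Lipa*, and the median was -0.25. These values are near those over all genes and are no result about the list. Of 7 tested heat shock genes 2 were lower, *Hsp90aa1* (209 and 447 CPM) and *Hspd1* (60.2 and 182 CPM), and the median was -0.49.

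**Figure D4:**
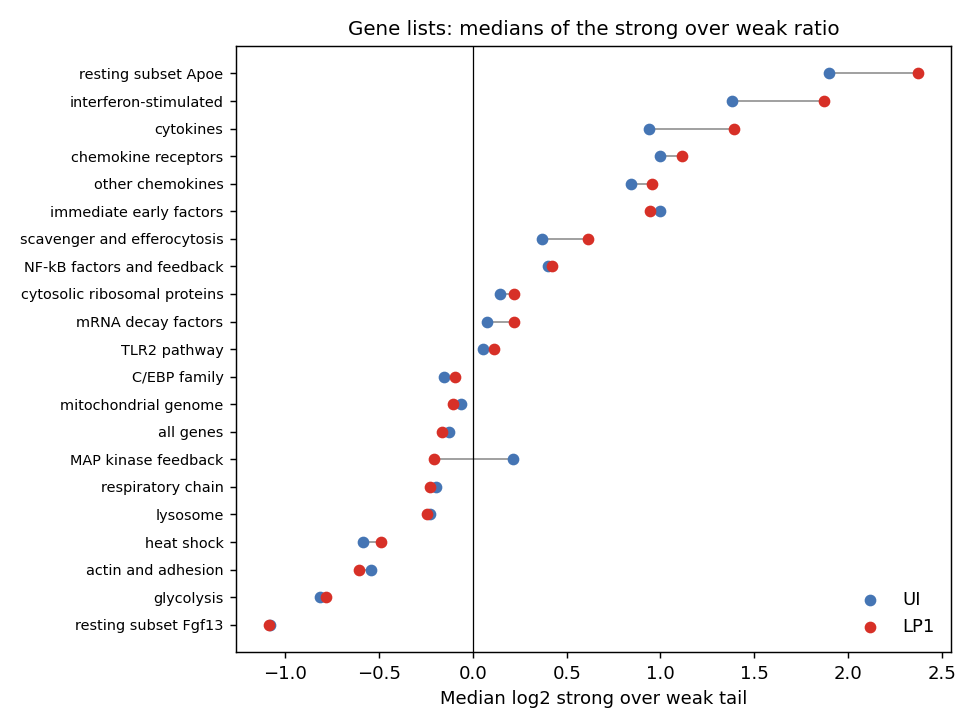
Median log2 ratio of strong over weak cells for each gene list and for all genes (x axis), in UI (blue) and LP1 (red). The *Apoe* list (1.90 in UI, 2.38 in LP1) and the *Fgf13* list (-1.08 and -1.09) mark the ends, and all lists but the MAP kinase feedback genes lie on the same side of 0 in both libraries.

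The ratio of strong over weak was at least 2-fold larger in LP1 than in UI for 23 of 3732 genes (0.616%) and at least 2-fold smaller for 4 (0.107%). Taking the same number of UMIs from each cell, 2000, these counts were 32 and 30. *F13a1*, a subunit of the clotting factor XIII made by macrophages, was at 107 and 8.40 CPM in LP1 against 114 and 34.4 CPM in UI, a difference of ratios of 1.95 (1.40 to 2.50). *Ifitm1*, *Gbp7*, *Ms4a4a* and the inhibitory Fc receptor *Fcgr2b* had differences of 1.36 to 1.53, and like *F13a1* they were lower in LP1 weak than in UI weak cells. *Ifitm1* was at 167 and 13.7 CPM in LP1 and 225 and 48.0 CPM in UI. *Cxcl10* differed by 1.66 (0.68 to 2.63). *Fn1*, fibronectin, and *Itgax*, an integrin chain, were lower in strong cells of both libraries but less so in LP1: *Fn1* was at 28.8 and 122 CPM in LP1 and at 4.62 and 116 CPM in UI. On the other side, apart from *Ccl5*, *Lig1* (-1.25, -1.99 to -0.51) and *Rad51b* (-1.09, -1.57 to -0.61) had smaller ratios in LP1. The UI weak tail was drawn from tied cells, and its part in these differences was not tested. With ties ordered by barcode, 5 differences of named genes moved beyond their intervals and 36 did not. With the lowest 1684 LP1 and 1983 UI cells as weak tails, the counts were 18 and 0.

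The genes that were higher at 1 h were higher in weak as well as in strong cells. Over all cells, 26 of 3345 genes with at least 50 CPM (0.777%) were at least 2-fold higher in LP1 than in UI, leaving out the score genes. Comparing the weak tails only, 26 of 26 were higher in LP1, 20 of them at least 2-fold, with a median log2 ratio of 1.17 (range 0.48 to 1.72). Comparing the strong tails, 26 of 26 were higher and 20 at least 2-fold, with a median of 1.07 (range 0.62 to 1.54). Over all 3345 genes the medians were -0.024 in the weak and -0.019 in the strong tails. The share of all 3345 genes past 2-fold between these tails was not counted, so 20 of 26 has no background here. The genes were chosen on these libraries, of which the tails are a part, and treatment, library and collection time cannot be told apart. All UI weak cells, but not all LP1 weak cells, had a score of 0. Between the LP1 tails the median ratio of these 26 genes was 0.18. At least 2-fold higher in strong cells were 2 (*Ccl2* and *Osm*), and 3 were lower (*Fabp7*, *Cers2* and *Sdf2l1*). Over all genes tested in LP1, 7.72% were higher and 8.63% lower. The counts of 2 and 3 are near these shares and are no result about the 26 genes.

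*Junb*, an AP-1 subunit, was at 554 CPM in UI weak and 977 CPM in LP1 weak cells, a log2 ratio of LP1 over UI of 0.82 (0.74 to 0.90), and at 782 and 1525 CPM in the strong tails, a ratio of 0.96 (0.89 to 1.04). *Cd14*, the co-receptor that hands lipoproteins to TLR2, had ratios of 0.88 (0.77 to 0.99) in the weak and 1.06 (0.95 to 1.17) in the strong tails. *Ccl2* had 1.17 in each, while its level in LP1 weak cells (87.0 CPM) remained below that in UI strong cells (227 CPM). For this chemokine the weak cells with *Bb*LP lay between the weak and the strong cells without it. *Osm* had a ratio of 0.48 (0.02 to 0.95) in the weak and 1.04 (0.76 to 1.33) in the strong tails, and *Ier5* had 1.22 (0.94 to 1.52) and 0.69 (0.46 to 0.93). *Sod2*, the mitochondrial superoxide dismutase, had 1.03 and 1.24, and *Pfn1*, an actin-binding protein, 1.41 and 1.18. Genes outside the 26 went both ways. *Nfkbia* had LP1 over UI ratios of 0.58 in the weak and 0.61 in the strong tails, *Cxcl1* 0.73 and 0.79, *Zfp36* 0.89 and 0.94 and *Tnf* 0.24 in each. *Apoe* (-1.52 and -0.21), *Egr3* (-1.20 and -0.03), *Cxcl10* (-1.25 and 0.41) and *Cd86* (-0.98 and -0.19) were lower in LP1 weak than in UI weak cells. The 2 weak tails were unlike sets. The UI one was drawn from 1978 cells with a score of 0, while 162 of the 505 LP1 weak cells had that score. Median depth was 4897 UMIs in UI weak and 9600 in LP1 weak cells. The part of these in the ratios between weak tails was not tested.

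**Figure D5:**
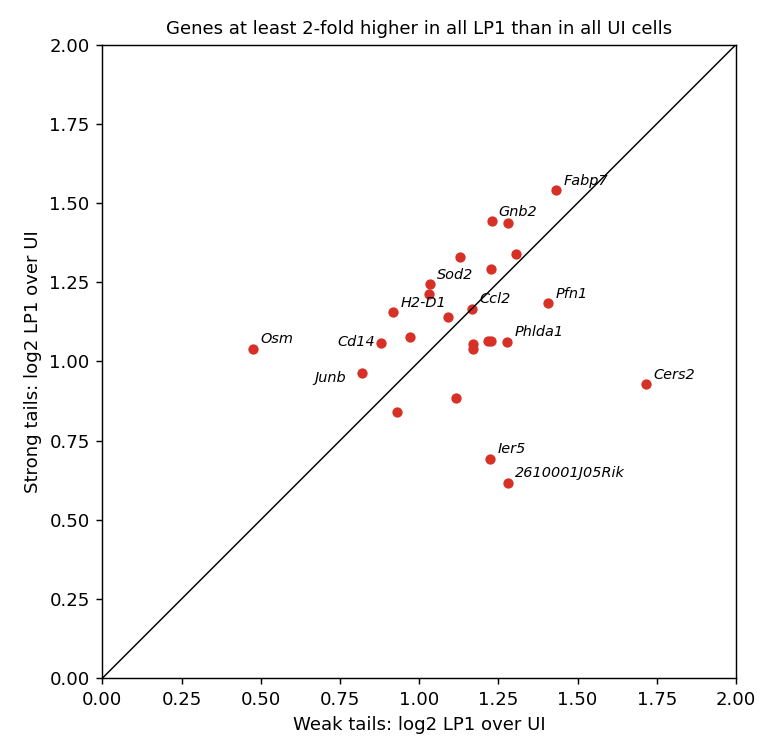
Each point is 1 of the 26 genes at least 2-fold higher in all LP1 than in all UI cells, with its log2 ratio of LP1 over UI in the weak tails (x axis) and in the strong tails (y axis); the line marks equal ratios. The 26 points lie above 0 on both axes, from 0.48 (*Osm*) to 1.72 (*Cers2*) in the weak tails.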

How the data were processed

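The measurement was 3' single-cell RNA-seq of BMDMs in 2 of the libraries, UI and LP1, with 1 library per condition. The authors deposited raw UMI counts per gene and barcode, made with Cell Ranger 7.1.0 against mm10 per the labels, with 35749924 UMIs in UI and 52773906 in LP1. Depth limits each value through its count. From these counts, cells over the stated limits were ranked by score, ties were broken at random (seed 20), and UMIs were summed over each tail of 10% and divided by the tail's total (CPM). Levels have exact Poisson intervals, ratios exact conditional binomial intervals, shares exact binomial intervals, and differences of ratios normal intervals, all at 95% and for counting error only. A count of 0 was set to 3 counts in ratios. Genes needed 20 UMIs, and for counts of genes past 2-fold 50 CPM in a tail. No p-value was computed, since cells of 1 library are not replicates. Named genes were the 10 at each end of the ratio in each library and of the difference between libraries, leaving out score, mitochondrial, ribosomal protein and unnamed genes, plus the gene lists. The cells, lists and rules were chosen with earlier results of these data known. The genes higher in all LP1 cells were described in addition, after their values were seen. The calculation was tested on simulated cells with known folds, which shared 1 base profile and had depth unrelated to the folds. That check did not cover tails that differ in depth or cell subset. Alternatives changed the tail size, depth, score, cell filters, scaling and gene minimum. Coordinates came from GENCODE (GRCm38), where 250 of 250 genes matched, and promoters from RefSeq (GRCm38.p6). The tools were scanpy 1.11.5 (Scrublet), scipy 1.17.1, matplotlib 3.10.9, pandas 2.3.3 and numpy 2.4.6 under Python 3.11.15 and, for TMM factors only, edgeR 4.0.16 under R 4.3.3.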

Additional observations from a re-analysis of the deposited data

Results flagged for a closer look

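For 2 of the named genes the ratio of strong over weak cells had opposite signs in LP1 and UI, with both intervals excluding 0. Opposite signs with an interval that included 0 were not counted. In neither case was the difference tested. *Dicer1*, which cuts microRNA precursors, was at 35.5 CPM in strong and 45.4 CPM in weak LP1 cells and at 53.7 and 37.8 CPM in UI, with ratios of -0.36 and 0.51 and a difference of -0.86 (-1.34 to -0.39, counting error only). *Ngp*, a neutrophil granule gene, was at 77.7 and 41.0 CPM in LP1 and at 15.5 and 99.1 CPM in UI, with ratios of 0.92 and -2.67 and a difference of 3.59. A single cell held 100% of the *Ngp* UMIs of the strong tail in LP1, and likewise in UI. Without each tail's highest cell the ratios were -4.00 and -5.86. Both are bounds, since the strong tails then had a count of 0, which was set to 3 counts.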

How the results depend on the processing

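No paired analysis was possible because each condition had 1 library. Counts are given as higher and lower in LP1, higher and lower in UI, and larger and smaller in LP1 than UI, where they moved by over 1.5 times, and the share of UI cells over the LP1 limit in percent. With 5% tails, 47 were larger, 26 smaller and the share was 0.572%, and with 20% tails 181 were lower in LP1, 143 higher and 120 lower in UI, 12 larger, 0 smaller and the share 6.88%. Thinned to 2000 UMIs, 30 were smaller and the share was 3.55%. Within 10 bins of UMIs, 146 were lower in LP1, 148 higher and 87 lower in UI, 12 larger, 1 smaller and the share 8.02%. Ranked by *Cebpb*, the counts were 5 and 20, 0 and 7, and 1 larger, with 0.656%, and ranked by *Ccl3* and *Ccl4* 1 was smaller, with 2.98%. Within 5 bins of *Apoe*, *Slc9a9* and *Selenop* they were 90 and 28, 75 and 30, 6 larger and 0 smaller, with 13.5%. For tails taken within bins, the limit was the lowest score of any strong LP1 cell, so the bin with the lowest cut set it. The shares of 8.02% and 13.5% are therefore not comparable with the others. The share was 2.79% with score and values from different UMIs. With score genes weighted equally it was 11.1%, but each gene was then scaled to its mean within its own library. The scores of UI and LP1 then had unlike units, so 11.1% does not compare the libraries. At 20 CPM, 416 and 629 differed in LP1, 497 were lower in UI, 63 larger and 39 smaller, at 100 CPM 148 were lower in LP1, 130 in UI and 0 smaller, and with no minimum 726 and 1462, 579 and 1120, 267 and 251. Smaller ratios alone moved with no UMI minimum (0), without other cell types (1), with ties by barcode (2) and, in alternatives added after seeing the data, with a weak tail of the lowest 1684 LP1 and 1983 UI cells (0), one of cells without score UMIs (9) or without each gene's highest cell (2). Signs reversed mostly when ranked by *Cebpb*: the lysosome list (0.11) and ribosomal proteins (-0.064) in LP1, *Egr3* (-0.18 in UI, -0.80 in LP1, difference -0.62), *Tnfsf8* (-1.58 in LP1), *Cd86* (-0.10, -0.18), *Ccl7* (-0.34, -0.89), *Nr4a3* (-0.43 in LP1), *Mertk* (-0.42 in LP1), *Pakap* (0.66, 1.02), *Mmp12* (0.15 in UI), *Ctsc* (-0.28, -0.21), *Clec4n* (-0.048 in UI), *Atrnl1* (-0.26 in LP1), *Fn1* (0.25 in LP1), *Ccl24* (-0.031 in UI) and the differences of *Cxcl10* (-0.62), *Itgax* (-0.0082) and *Ngp* (-6.08). Within the *Apoe* bins, *Egr3* (difference -0.22), *Lig1* (difference 0.14), *Hist1h2ap* (0.18) and *Hist1h1b* (0.063 in LP1) reversed. Without cycling cells, *Hist1h1b* (0.14 in UI, 0.71 in LP1), *Ngp* (0.97 in UI) and the differences of *Hist1h2ap* (-0.53), *Top2a* (-0.025) and *Ngp* (-3.76) reversed. Other reversed differences were *Hist1h1b* (-0.55), *Top2a* (-0.79) and *Ngp* (-3.16) when thinned, *Top2a* (-0.26) with 20% tails, *Ngp* (-4.01) with 5% tails, *Itgax* (-0.0017) from different UMIs and *Ccl5* (1.39) without other cell types. The causes were not tested. Of the other values, 1320 gene ratios, 732 differences and 757 list medians stayed within their spread and 458, 152 and 121 moved. The medians of the genes higher in all LP1 cells kept their direction, at 1.06 to 1.21 in the weak and 1.06 to 1.22 in the strong tails. These genes were chosen as higher over all cells of these libraries, which largely set that direction.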
